A study of Mus musculus with 47 samples.

Results

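The 9 genes described here encode the receptors, or receptor chains, through which dendritic cell progenitors sense growth factors: Kit, Flt3, Csf1r, Csf2ra, Csf2rb, Csf2rb2, Csf3r, Il3ra and Il7r. They were chosen by symbol, and all 9 were found among the 21000 genes of each of 47 mouse RNA sequencing libraries. Levels are given as CPM, a gene's counts relative to the size of its library, scaled between libraries by the trimmed mean of M values (TMM) method.

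The libraries fell into 17 groups of cultured and primary cells. Wild type (WT) monocyte-dendritic cell progenitors (MDP), common dendritic cell progenitors (CDP) and pre-cDC1 were taken directly from bone marrow, and WT pre-cDC1 and cDC1 from spleen. All cultured groups began from bone marrow and grew with Flt3 ligand (Flt3L): WT MDP, CDP, pre-cDC1, pre-cDC2, cDC1 and cDC2. Further cultured pre-cDC1 carried deletions of enhancers of the transcription factor gene Irf8. They were labelled d+32het or d+56het, for loss of the +32 kb or the +56 kb enhancer on 1 allele, and d+32, for +32 kb enhancer deficiency with no heterozygous tag. Cultured cDC1 of the d+56 and d+32 genotypes had received IRF8, were prepared from lineage-negative cells, and stood beside WT cDC1 labelled MSCV. The d+56 label of these cells bore no heterozygous tag, unlike that of the d+56het pre-cDC1. Each group held 3 libraries except primary CDP and splenic cDC1, which held 1 each. Every replicate 3 and the primary CDP library were deposited under a block of sample numbers apart from that of the other libraries. The part of this block in the results was not tested. The submitters' design text mentions duplicates although titles number 3 replicates, and no label ties libraries to an animal or a culture. The p-values therefore cover only library-to-library spread, which may be technical. Mouse age, sex, strain and the antibody gates used for sorting were not given in the sources used here. Because MDP, CDP and pre-cDC1 are commonly sorted on some of these receptor proteins, a level set by the gate and a level of the cell cannot be told apart.

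For 4 libraries the labels went against each other. Replicates 1 and 2 titled cultured cDC1 carried the name of pre-cDC2 in their files, and replicates 1 and 2 titled cultured pre-cDC2 carried that of cDC1. In the pair titled cDC1, the summed level of 8 cDC2 markers was 1766 and 2495 CPM, against 484 CPM in cDC1 replicate 3, and Csf1r stood at 90.2 and 112 CPM. In the pair titled pre-cDC2, the sum of 8 cDC1 markers was 3757 and 3686 CPM, and Csf1r stood at 8.37 and 14.2 CPM. All tests below leave these 4 libraries out, so cultured cDC1 and pre-cDC2 rest on replicate 3 alone, which the fits assumed to vary like the other groups. Both libraries come from the separate block of sample numbers, whereas most groups set against them hold libraries of both blocks. Several results that touch them are also given with the libraries grouped by title or by file name. The comparisons of pre-cDC2 with CDP and of cDC2 with pre-cDC2 are given for pre-cDC2 replicate 3 alone. Grouped by file name, cultured cDC1 held 378 ± 12.7 CPM of Kit, 12.4 ± 3.49 of Csf1r and 324 ± 91 of Csf2rb (SD, n = 3), and pre-cDC2 held 229 ± 43.7, 87.5 ± 25.9 and 615 ± 39.4. In the libraries without such a conflict, the cDC1 markers summed to 3120 to 6449 CPM in the 5 cDC1 groups and 569 to 676 in cDC2, and the cDC2 markers to 5358 to 6158 in cDC2. The remaining pre-cDC2 library, replicate 3, held 2063 CPM of the cDC1 markers, inside the range of 1753 to 2078 CPM in WT cultured pre-cDC1, and 1084 CPM of the cDC2 markers, against 418 to 522. The pair titled cDC1 and filed as pre-cDC2 held 1164 and 1182 CPM of the cDC1 markers, below all 5 cDC1 groups. The pair titled pre-cDC2 and filed as cDC1 lay inside the range of those groups. The markers of these 4 libraries thus go against their titles. The cDC1 markers of pre-cDC2 replicate 3 likewise go against its label, and every pre-cDC2 value in the tests is that of the library labelled pre-cDC2.

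KIT, FLT3 and the CSF1 receptor are receptor tyrosine kinases, which pair up when a ligand binds and phosphorylate one another. Stem cell factor (for KIT), FLT3 ligand and CSF1 or IL-34 (for CSF1R) support early progenitors, dendritic cells, and monocytes and macrophages, in that order. Csf2ra, Csf2rb, Csf2rb2 and Il3ra encode chains of cytokine receptors that have no kinase of their own and signal through JAK2 and STAT5. CSF2RA binds GM-CSF and IL3RA binds IL-3, both pair with the common beta chain encoded by Csf2rb, and Csf2rb2 is a mouse copy of that gene whose protein serves IL-3 alone. The G-CSF receptor, encoded by Csf3r, is best known from neutrophils and their progenitors, and IL7R pairs with the common gamma chain (Il2rg) for IL-7 or with Crlf2 for TSLP.

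Csf2rb (GRCm38 chr15:78325800-78351001) and Csf2rb2 (chr15:78282507-78305721) lie side by side, and their likeness bears on every value of either. Over 2631 aligned coding bases, 2505 were identical (95.2%). Of the 2642 windows of 50 bases in the Csf2rb coding sequence, 687 (26.0%) occurred unchanged in Csf2rb2, and of those of 100 bases 286 of 2592 (11%) did. The most alike window of 90 bases, coding bases 662 to 751 of Csf2rb and 665 to 754 of Csf2rb2, held no mismatch, so a read from it fits both genes. The least alike window, bases 308 to 397 and 311 to 400, held 16 mismatches, shown in capitals. Both are shown, from the GENCODE transcripts Csf2rb-201 and Csf2rb2-201, because they set where reads can and cannot be assigned.
Csf2rb and Csf2rb2, most alike: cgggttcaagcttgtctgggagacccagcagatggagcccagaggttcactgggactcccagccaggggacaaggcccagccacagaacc
Csf2rb, least alike: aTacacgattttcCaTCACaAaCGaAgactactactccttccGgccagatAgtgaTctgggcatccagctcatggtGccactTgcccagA
Csf2rb2, least alike: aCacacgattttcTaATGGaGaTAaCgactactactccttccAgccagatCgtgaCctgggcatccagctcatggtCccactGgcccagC
How reads were split between the genes is therefore uncertain, and the level of Csf2rb2 over that of Csf2rb ran from 0.161 to 0.572 between libraries.

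Of the 5 receptors that rose from CDP to pre-cDC1 in culture, as given below, the promoters of Kit and Csf2rb2 are shown, as 1 tyrosine kinase and 1 cytokine receptor chain: the 250 bases before the annotated start, from RefSeq (GRCm38.p6). Capitals mark GAGGAA or its reverse complement, the core letters of sites bound by the myeloid ETS factor PU.1.
Kit, chr5:75574737-75574986, plus strand: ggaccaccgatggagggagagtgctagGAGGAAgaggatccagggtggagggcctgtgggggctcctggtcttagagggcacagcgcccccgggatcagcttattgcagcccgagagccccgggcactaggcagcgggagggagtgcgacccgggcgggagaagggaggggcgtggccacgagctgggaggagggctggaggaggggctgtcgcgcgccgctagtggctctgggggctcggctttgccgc
Csf2rb2, chr15:78305722-78305971, minus strand: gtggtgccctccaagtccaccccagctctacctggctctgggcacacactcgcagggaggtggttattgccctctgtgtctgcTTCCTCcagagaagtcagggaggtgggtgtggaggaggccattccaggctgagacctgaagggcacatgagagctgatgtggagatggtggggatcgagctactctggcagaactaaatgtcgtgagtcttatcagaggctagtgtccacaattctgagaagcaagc
GAGGAA stood 223 bases before the start of Kit, and on the reverse strand 167 bases before that of Csf2rb2. Promoters of 7 of the 9 receptors were in the table, and Csf2ra and Csf3r also held the letters. They did not follow the direction at that step, since Flt3, which rose, lacked them and Csf3r, which fell, held them. The letters were in 23.3% of 32851 promoter windows of that length. The other 5 motifs searched on both strands had no match in the window of any receptor: a pair of interferon response repeats (in 2.98% of windows), the ETS-IRF composite element (2.3%), which can overlap that pair, AGATAA of GATA factors (9.99%), TGANTCA of AP-1 (6.75%) and the E box CACCTG (17.2%). A match is a description of letters, not of a bound site.

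The receptors differed widely in how far their level moved between groups. Kit (chr5:75574987-75656722) spanned 22.4-fold between group means, from 26.9 CPM in cultured CDP to 604 CPM in the splenic cDC1 library. Flt3 (chr5:147330741-147400489) spanned 2.15-fold, from 62.8 CPM in cultured MDP to 135 CPM in splenic pre-cDC1. Kit moved most and Flt3 least of the 3 tyrosine kinases, and Csf1r (chr18:61105572-61131139) lay between, at 13.5-fold from 9.16 CPM in WT MSCV cDC1 to 124 CPM in marrow pre-cDC1. Csf2ra (chr19:61217191-61228461) spanned 3.5-fold, Csf2rb 4.77-fold and Csf2rb2 7.71-fold. Il3ra (chr14:14345912-14355493) stayed low in all groups, at means of 2.11 to 11.7 CPM, and Il7r (chr15:9506159-9529941) ran from 1.24 to 42 CPM. Csf3r (chr4:126023441-126044975) ran from 0 counts in WT cultured pre-cDC1 to 128 CPM in marrow MDP. When the 17 groups were ordered by mean, most neighbours overlapped: 12 of 16 neighbouring pairs for Kit, 13 for Flt3, 10 for Csf1r and 11 to 13 for the other genes.

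**Figure D1:**
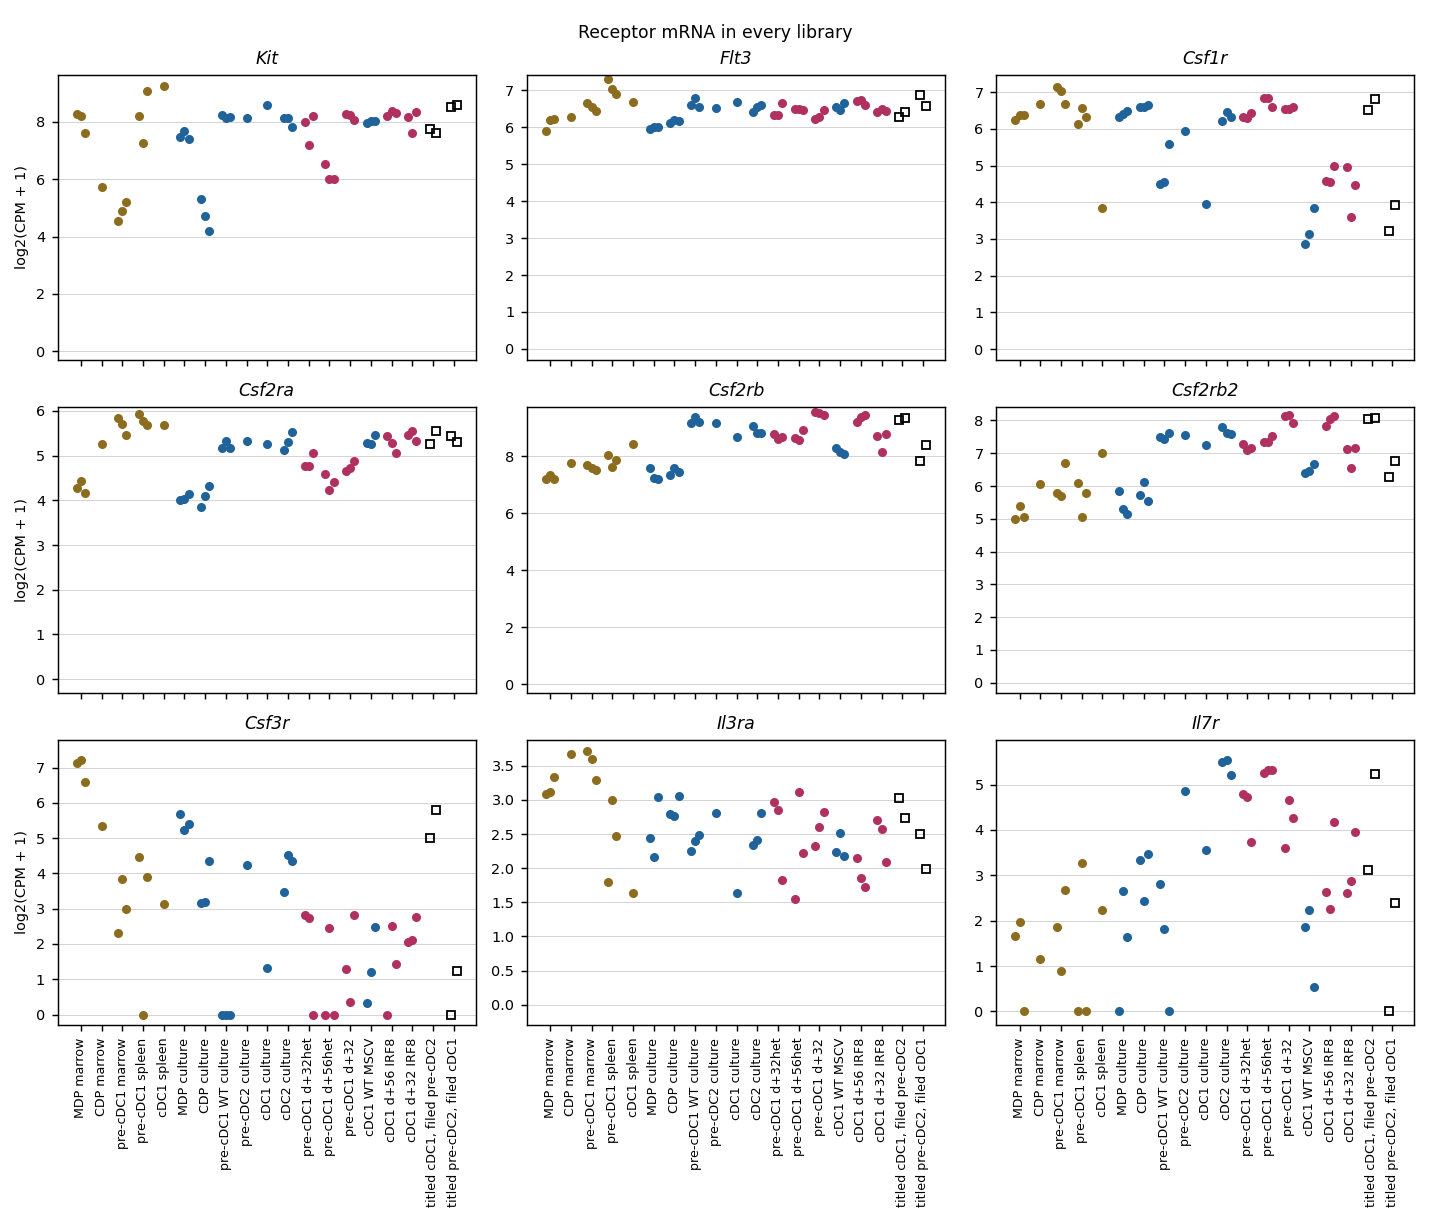
Level of each receptor, as log2(CPM + 1), in every library of the 17 groups; gold points are primary cells, blue points WT cultured cells including WT MSCV, red points cells with an enhancer deletion, and open squares the 4 libraries whose title and file name disagree. Kit, Csf1r and Csf3r span the panels, whereas the Flt3 points stay between group means of 62.8 and 135 CPM.

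The narrow range of Flt3 goes with a limit in the deposited counts. Among genes with a single curated RefSeq transcript, the mean count per exon base reached 0.873 at the 99th percentile, against 6.64 for genes with 2 transcripts. Flt3, Csf1r, Csf2ra and Il3ra are single-transcript genes. Flt3 averaged 0.681 counts per base, with 1700 to 3352 counts in each of the 47 libraries although library totals ran from 14660655 to 43084069. Csf2ra averaged 0.505 and Csf1r 0.388 counts per base, with highest values of 0.882 and 0.721. The CPM of a gene held near a limit also moves with library size, so differences of these 3 genes may be understated, created or reversed. Csf1r had 8687 counts over the marrow MDP libraries and 8117 over those of marrow pre-cDC1, at means of 79.6 and 124 CPM. Flt3 had 6365 counts over cultured MDP and 8049 over splenic pre-cDC1, at 62.8 and 135 CPM. The part of the limit in each result was not tested.

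Per kilobase of exon, Kit stood at 50.6 CPM per kb in marrow MDP. The values of Flt3, Csf1r and Csf2ra on this scale are subject to the count limit, so their place beside Kit, Csf3r and the beta chains cannot be read as an order of transcripts. Csf3r followed at 36.5, Csf2rb at 29.1, Flt3 at 18.8 and Csf1r at 16.3 CPM per kb. In WT cultured pre-cDC1 the values were Csf2rb at 116 CPM per kb, Kit at 54.6, Csf2rb2 at 38.3, Flt3 at 27.1, Csf2ra at 19.6 and Csf1r at 6.21. Csf2rb stood above Kit on the per-length scale in these cells and below it in marrow MDP.

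In culture, Kit fell from MDP to CDP and was high again in pre-cDC1. MDP held 176, 206 and 169 CPM of Kit, CDP 38.2, 25.4 and 17.2, and pre-cDC1 301, 276 and 283. All 3 CDP libraries lay below every MDP and every pre-cDC1 library. Of the 9 receptors, Kit alone passed the test between CDP and MDP (log2 fold change -2.78 ± 0.22, standard error; edgeR adjusted p = 0.000103), where 1.04% of all genes passed at an adjusted p under 0.05. Csf3r went from 50.6, 36.9 and 41.2 CPM in MDP to 7.89, 8.12 and 19.4 in CDP without passing it. The 7 other receptors differed by less than the test could call.

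From CDP to cultured pre-cDC1, 5 receptors rose and 2 fell, in a comparison where 23.3% of all genes passed, 12.1% higher and 11.2% lower. Kit rose by 3.36 ± 0.23 on the log2 scale (adjusted p = 4.41e-07), the widest change among the receptors with counts on both sides. Csf2rb went from 161, 192 and 173 CPM to 574, 658 and 582 (log2 fold change 1.74 ± 0.12, adjusted p = 5.1e-07). Csf2rb2 went from 52.3, 68.1 and 45.4 to 178, 171 and 195 CPM (1.67 ± 0.18, adjusted p = 2.53e-05). The beta chains and Kit showed no overlap between the stages. The alpha chain Csf2ra rose from 13.5, 16 and 19.1 to 35, 39.4 and 35.1 CPM (1.12 ± 0.14, adjusted p = 6.75e-05), so that both chains of the GM-CSF receptor were higher in all 3 pre-cDC1 libraries. Flt3 rose least, from 68.6, 72.9 and 71.1 to 96.6, 109 and 92.3 CPM (0.44 ± 0.08, adjusted p = 0.00209).

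The 2 receptors that fell at this step are those of the monocyte and granulocyte factors. Csf1r went from 95.1, 95 and 100 CPM in CDP to 21.5, 22.4 and 47.1 in pre-cDC1, with replicate 3 apart from the other 2 but below every CDP library (log2 fold change -1.72 ± 0.29, adjusted p = 0.000876). With the 4 conflicting libraries grouped by title, which adds them to the shared estimate of spread, its adjusted p was 0.0709. Csf3r had 0 counts in all 3 pre-cDC1 libraries and passed as lower than in CDP (edgeR adjusted p = 0.000343). By counting error alone, 0 counts allow up to 0.0369 CPM over the group, at least 321-fold lower than in CDP. This limit, like the others at 0 counts below, leaves out the spread between libraries. Monocyte marker genes (10 genes) summed to 248 to 294 CPM in pre-cDC1 and 525 to 1088 in CDP, and their part in these falls was not tested.

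The library labelled pre-cDC2, whose cDC1 markers matched those of pre-cDC1 as given above, was compared with CDP as well, and 10.8% of genes passed. Kit stood at 278 CPM (log2 fold change over CDP 3.35 ± 0.27, adjusted p = 3.56e-06), Csf2rb at 573 CPM (1.69 ± 0.15, adjusted p = 1.15e-05), Csf2rb2 at 188 CPM (1.75 ± 0.23, adjusted p = 0.00026) and Csf2ra at 39.4 CPM (1.26 ± 0.18, adjusted p = 0.000479). These 4 receptors passed, and the same comparison shares its CDP libraries with the one above. Between the precursors, where 0.15% of genes passed, Csf3r alone did (0 counts in pre-cDC1, 17.9 CPM in the library labelled pre-cDC2, adjusted p = 0.0237), at least 486-fold lower in pre-cDC1. Mast cell and basophil markers (10 genes) summed to 162 CPM in that library, 1.97 to 5.9 in CDP and 2.05 to 20.5 in pre-cDC1. The part of these markers in its Kit and beta chain levels was not tested. Neutrophil and granule markers (10 genes) summed to 208 CPM in that library and 4.2 to 23.8 in pre-cDC1, with Ly6g at 0 in both, and monocyte markers to 1160 and 248 to 294 CPM. Their part in the Csf3r difference was not tested. That call was lost without pre-cDC1 replicate 2 (adjusted p = 0.0751) or replicate 3 (0.0531), with the libraries grouped by title (0.211), with only the groups compared (0.288), and with all libraries in 1 fit (0.449). Csf1r, at 60.4 CPM in pre-cDC2, passed only with the conflicting libraries grouped by file name (log2 fold change -1.53, adjusted p = 0.0185).

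Between precursors and mature cells the tests called few receptors. Cultured cDC1 replicate 3 held 386 CPM of Kit, 101 of Flt3, 14.6 of Csf1r, 406 of Csf2rb and 151 of Csf2rb2. Against pre-cDC1 none passed in edgeR, where 2.26% of all genes did, 4 had an unadjusted p under 0.05, and DESeq2 called 2, Csf2rb and Csf3r. With file names, 3 receptors passed in edgeR: Csf1r fell by 1.25 on the log2 scale (adjusted p = 0.0226), Csf2rb fell by 0.87 (adjusted p = 0.00437), and Csf3r was higher (adjusted p = 0.0451). Cultured cDC2 against pre-cDC2 gave 0 receptors in edgeR, 0 at an unadjusted p under 0.05 and 0 in DESeq2, where 9.95% of genes passed in edgeR.

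Csf1r was lower in mature cDC1 than in cDC2. It stood at 73.1, 86.7 and 78.4 CPM in cultured cDC2 and at 14.6 CPM in cDC1 replicate 3 (log2 fold change -2.44 ± 0.47, adjusted p = 0.0121), the 1 receptor of 9 that passed where 3.72% of genes did. Grouped by title, which the markers given above go against, the difference was -0.14 (adjusted p = 0.936), and grouped by file name 4 receptors passed. Monocyte markers summed to 903 to 1133 CPM in cDC2, 348 in cDC1 replicate 3 and 238 to 301 in WT MSCV cDC1, and mast cell and basophil markers to 172 to 345, 18 and 29.7 to 106 CPM. Their part in this and the next differences was not tested. A comparison free of the conflicting libraries is that of WT MSCV cDC1 with cDC2, in which cells with and without virus also differ and 18.1% of genes passed, 9.1% higher and 9.04% lower. Csf1r stood at 6.25, 7.83 and 13.4 CPM there, below every cDC2 library (-3.11 ± 0.31, adjusted p = 2.95e-05). Csf2rb, at 313, 280 and 272 CPM against 533, 449 and 445, was also lower without overlap (-0.71 ± 0.12, adjusted p = 0.00103). Csf2rb2 was lower with it, at 83.2, 87.7 and 100 against 222, 196 and 191 CPM (-1.16 ± 0.18, adjusted p = 0.000639).

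Csf3r and Il7r completed the 5 receptors lower in WT MSCV cDC1 than in cDC2. Il7r stood at 2.64, 3.73 and 0.464 CPM against 44.3, 45.8 and 36 (-4.18 ± 1.34, adjusted p = 0.047), and Csf3r at 0.243, 1.31 and 4.64 against 10.2, 22.1 and 19.3 CPM (-3.07 ± 0.75, adjusted p = 0.0168). Neither pair of groups overlapped. The Il7r call was lost without any 1 of the 6 libraries (log2 fold changes -4.74 to -3.70): adjusted p was 0.0854, 0.0966 and 0.0765 without cDC2 replicates 1, 2 and 3, and 0.113, 0.0812 and 0.122 without the same replicates of WT MSCV cDC1. It was also lost in 1 fit of all libraries (0.11) and with the conflicting libraries added by title (0.0901) or file name (0.0541), and those of Csf2rb (0.0557) and Csf3r (0.15) were lost by title. The Csf3r call was lost without WT MSCV replicate 2 (-2.83, adjusted p = 0.0623), with only the groups compared (0.0664) and with all libraries in 1 fit (0.28), and the value ran from -4.42 to -2.54 when 1 library was left out. Between WT MSCV and untransduced cDC1 no receptor passed in edgeR, where 0.256% of genes did, 2 had an unadjusted p under 0.05, and DESeq2 called 0. Grouped by title, 2 receptors passed there: Csf1r (-2.97, adjusted p = 0.0413) and Csf2rb2 (-1.32, adjusted p = 0.0341).

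In bone marrow the step from MDP to pre-cDC1 ran the other way for Kit. Kit stood at 308, 295 and 195 CPM in marrow MDP, at 52.5 CPM in the single CDP library and at 22.1, 28.7 and 35.9 CPM in marrow pre-cDC1. Every pre-cDC1 library was below every MDP library (log2 fold change -3.22 ± 0.48, adjusted p = 0.00665). Csf2ra rose from 18.3, 20.7 and 16.9 to 56.5, 51.1 and 42.8 CPM (1.41 ± 0.19, edgeR adjusted p = 0.00464), and these 2 receptors passed where 8.24% of genes did. Csf2ra had 2065 counts over the MDP libraries and 3319 over those of pre-cDC1. Its rise in CPM is subject to the count limit given above, whose part was not tested. Csf3r stood at 139, 148 and 96.4 CPM in MDP, 39.5 in CDP and 3.92, 13.3 and 6.97 in pre-cDC1. It did not pass in the fit of 11 primary libraries, but did so in DESeq2 (adjusted p = 0.0101) and with only the groups compared (0.00193). Csf1r went from 74.3, 81.5 and 82.9 to 140, 130 and 101 CPM, passing only in DESeq2 (0.0283) and with only the groups compared (0.0349). Csf2rb went from 145, 163 and 148 to 206, 192 and 181 CPM and passed in none of the fits. Csf2rb2 and Flt3 passed there in the fit of all libraries (adjusted p = 0.00235 and 0.00411). Scaling by genes near the count limit, an alternative chosen after seeing the data, moved the receptors' log2 fold changes in this comparison by a median of -0.33.

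Splenic pre-cDC1 held more Kit than those of marrow, at 295, 152 and 543 CPM (log2 fold change 3.48 ± 0.49, adjusted p = 0.0145), the 1 receptor that passed where 1.88% of genes did. All splenic libraries lay above all marrow libraries. Replicate 3 was the highest, and its 8 cDC1 markers summed to 1845 CPM, against 836 and 893 in the other splenic libraries. Without it Kit differed by 2.87 (adjusted p = 0.00361), and without replicates 1 and 2 in turn by 3.57 and 3.83. The call was lost without marrow replicate 1 (3.32, adjusted p = 0.0811), 2 (3.47, 0.0908) or 3 (3.67, 0.0533), and narrowly with only the groups compared (0.0501) and with the scaling by genes near the count limit (0.0545). Monocyte markers summed to 2727 to 3297 CPM in marrow pre-cDC1 and 537 to 638 in splenic pre-cDC1, and their part in the difference was not tested. In these bulk libraries, fewer cells of a type and less RNA per cell cannot be told apart. The single splenic cDC1 library held 604 CPM of Kit, 342 of Csf2rb, 13.3 of Csf1r and 7.85 of Csf3r.

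**Figure D2:**
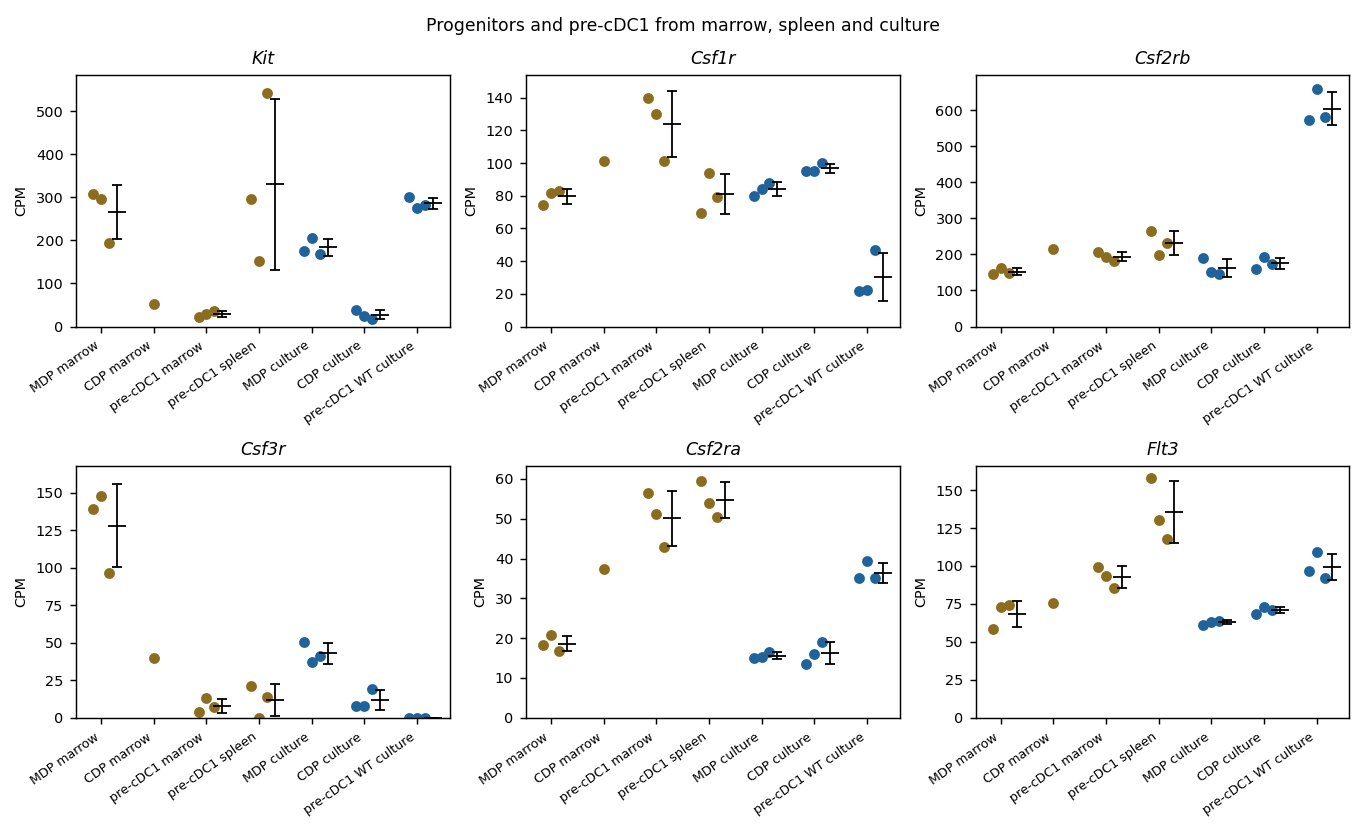
Level in CPM of 6 receptors in MDP, CDP and pre-cDC1 from marrow, spleen (gold) and culture (blue); points are libraries, and bars the mean and standard deviation where a group has more than 1 library. Cultured pre-cDC1 hold 276 to 301 CPM of Kit and marrow pre-cDC1 22.1 to 35.9, and Csf2rb in cultured pre-cDC1, at 574 CPM or more, lies above every other library shown.

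Pre-cDC1 of the same label from culture and from marrow differed in receptor levels, and 7 of 9 passed the test between them, where 21.9% of all genes did. Kit was higher in culture without overlap (log2 fold change 3.28 ± 0.21, adjusted p = 1.23e-05). Csf2rb, at 574 to 658 against 181 to 206 CPM, was higher by 1.62 ± 0.12 (adjusted p = 2.23e-05). Csf2rb2 was higher by 1.36 ± 0.27 (adjusted p = 0.00495), where marrow replicate 3 stood at 104 CPM and replicates 1 and 2 at 54.3 and 50.3. Csf1r was lower in culture, at 21.5, 22.4 and 47.1 against 140, 130 and 101 CPM (-2.05 ± 0.27, adjusted p = 0.000493). Il3ra was lower too, at 3.74, 4.26 and 4.59 against 12.1, 11.1 and 8.84 CPM (-1.37 ± 0.30, adjusted p = 0.00747). Neither gene's ranges overlapped.

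Csf3r, with 0 counts in cultured pre-cDC1, was lower than in marrow pre-cDC1 (edgeR adjusted p = 0.000112), by counting error alone at least 217-fold. Csf2ra was lower by a small step (-0.48 ± 0.14, adjusted p = 0.0279), and that call was lost without marrow replicate 1 (-0.37, adjusted p = 0.118) or 2 (-0.46, 0.0807) and without cultured replicate 1 (-0.45, 0.0986) or 3 (-0.45, 0.0903), with only the groups compared (0.0581) and with the scaling by genes near the count limit (0.0715). That scaling also ended the call of Csf2rb2 (1.29, adjusted p = 0.0552). Flt3 did not pass, at 96.6, 109 and 92.3 against 99.4, 93.1 and 85.3 CPM. The cDC1 markers summed to 1753 to 2078 CPM in cultured and 375 to 405 in marrow pre-cDC1, and the monocyte markers to 248 to 294 and 2727 to 3297, and whether the cells of 1 label were of 1 stage was not tested.

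Between MDP of the 2 sources 1 receptor, Csf3r, passed where 8.28% of genes did, at 50.6, 36.9 and 41.2 CPM in culture and 139, 148 and 96.4 in marrow (-1.60 ± 0.38, adjusted p = 0.0345). The ranges did not overlap, but the call was lost without marrow replicates 1 (-1.53, 0.0814) or 2 (-1.49, 0.0904) and without cultured replicates 1 (-1.73, 0.0761), 2 (-1.51, 0.116) or 3 (-1.57, 0.101), in 1 fit of all libraries (0.705), and with the scaling by genes near the count limit (0.0813). Kit passed without marrow replicate 3 alone (-0.73, adjusted p = 0.0336). The change from MDP to pre-cDC1 itself differed between culture and marrow for 4 receptors, where 11.4% of genes passed that interaction test. The difference of the log2 fold changes was 3.84 ± 0.29 for Kit (adjusted p = 9.88e-05), 1.55 ± 0.17 for Csf2rb (adjusted p = 0.000645) and -2.11 ± 0.38 for Csf1r (adjusted p = 0.00629). For Csf3r the test passed (adjusted p = 0.00258), but its size depends on the group with 0 counts, and in 1 fit of all libraries it did not pass (0.121).

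The enhancer deletions were compared in cultured pre-cDC1. Irf8 itself, the gene whose enhancers were deleted, stood at 3453 ± 144 CPM (SD, n = 3) in WT, 1229 ± 99 in d+32het, 993 ± 96.9 in d+56het and 492 ± 37.3 in d+32, with no overlap between WT and any deletion. The 3 deletion groups were each compared with the same WT libraries. The cDC1 markers were lower in every deletion group, though not in the order of Irf8, going from 1753 to 2078 CPM in WT to 422 to 643 in d+32het, 268 to 305 in d+56het and 280 to 332 in d+32. The cDC2 markers summed to 418 to 522, 1301 to 1383, 1744 to 2142 and 2066 to 2561 CPM in the same order, and the 7 plasmacytoid dendritic cell (pDC) markers to 302 to 411, 1094 to 1344, 1901 to 2818 and 762 to 809. These sums differed between the groups compared below, and their part in the results was not tested.

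Csf1r was higher in all 3 deletion groups. It stood at 21.5, 22.4 and 47.1 CPM in WT, 79.7, 78 and 85.6 in d+32het, 113, 114 and 96.2 in d+56het and 92.6, 91.9 and 94.9 in d+32. Every deletion library lay above every WT library. The log2 fold change over WT was 1.63 ± 0.26 for d+32 (adjusted p = 0.00594), 1.84 ± 0.26 for d+56het (adjusted p = 0.00149) and 1.43 ± 0.26 for d+32het (adjusted p = 0.0155). The d+32het call was lost without WT replicate 1 (1.22, adjusted p = 0.0611) or 2 (1.24, 0.0742), and with only the groups compared (0.0974), whereas the other 2 calls held in every alternative run. Monocyte markers summed to 248 to 294 CPM in WT, 309 to 438 in d+32het, 405 to 523 in d+56het and 346 to 364 in d+32.

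Kit fell in d+56het cells alone. It stood at 301, 276 and 283 CPM in WT, 91.6, 62.5 and 62.5 in d+56het, 256, 146 and 291 in d+32het and 305, 299 and 266 in d+32. The 3 d+56het libraries lay below all 9 others. Kit differed by -1.98 ± 0.24 from WT (adjusted p = 0.000612), by -2.00 ± 0.24 from d+32 (adjusted p = 0.00558) and by -1.67 ± 0.24 from d+32het (adjusted p = 0.0209), and the last call was lost without d+56het replicate 2 (-1.57, adjusted p = 0.0549) and with only the groups compared (0.321). Mast cells also carry KIT: 10 markers of mast cells and basophils summed to 211, 441 and 555 CPM in d+32, 8.37 to 42 in d+32het, 12.6 to 32.5 in d+56het and 2.05 to 20.5 in WT. Their part in the level of Kit in d+32 was not tested.

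Csf2ra was lower than in WT without overlap in all 3 deletion groups, and passed in d+56het. In d+56het cells Csf2ra stood at 23, 17.9 and 20.4 CPM against 35, 39.4 and 35.1 in WT, with no overlap (log2 fold change -0.83 ± 0.14, adjusted p = 0.00401). It stood at 24.4, 25.6 and 28.6 CPM in d+32, which passed in DESeq2 (-0.46, adjusted p = 0.0148) and with only the groups compared (-0.47, 0.0405) but not in the edgeR fit of all genotypes, and at 26.1, 26.3 and 32.4 CPM in d+32het, which did not pass. Csf2rb was lower as well in d+56het, at 397, 377 and 481 against 574, 658 and 582 CPM (-0.52 ± 0.11, adjusted p = 0.0118). That call was lost without WT replicate 2 (-0.46, adjusted p = 0.0508) and with only the groups compared (0.0536). With Il7r, which rose from 6, 2.52 and 0 CPM in WT to 37, 39.3 and 39.2 (3.76 ± 1.03, adjusted p = 0.0397), this made 5 of 9 receptors called between d+56het and WT, where 12.4% of genes were. The Il7r call was lost without WT replicate 2 (3.69, adjusted p = 0.137) and without each d+56het replicate in turn (3.79, 3.75 and 3.75, adjusted p = 0.0671, 0.0657 and 0.0701), with only the groups compared (0.121) and in 1 fit of all libraries (0.128). Its size was 4.95 without WT replicate 1 and 3.18 without replicate 3. Il7r also stood above every WT library in d+32, at 11.2, 24.4 and 18.1 CPM, and in d+32het, at 26.7, 25.5 and 12.4, without passing in edgeR, and DESeq2 called it in d+32het (adjusted p = 0.0418).

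In d+32het cells 2 of 9 receptors passed against WT, Csf1r and Csf2rb, where 3.71% of genes did. Csf2rb stood at 441, 385 and 407 CPM, below all WT libraries (-0.55 ± 0.11, adjusted p = 0.0235). The call was lost without WT replicate 1 (-0.59, adjusted p = 0.0551) or 2 (-0.49, 0.102) and without d+32het replicate 2 (-0.52, 0.0669) or 3 (-0.54, 0.0729), with only the groups compared (0.0619), and with the scaling by genes near the count limit (0.0797). In d+32 cells 2 of 9 passed, Csf1r and Csf2rb2, where 4.52% of genes did. Csf2rb2 was higher, at 279, 284 and 240 against 178, 171 and 195 CPM (0.57 ± 0.10, adjusted p = 0.0125), while Csf2rb, at 744, 741 and 692 CPM, did not pass. The Csf2rb2 call was lost without WT replicate 1 (0.55, adjusted p = 0.0605) or 2 (0.52, 0.0685) and without d+32 replicate 1 (0.54, 0.0586) or 2 (0.52, 0.059), in 1 fit of all libraries (0.264), and with reads of both genes taken as 1 gene (0.34, adjusted p = 0.0962).

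Set against each other, the d+32 and d+32het genotypes differed in the beta chains, 2 of 9 receptors where 0.0689% of genes passed. Csf2rb was higher in d+32 by 0.82 ± 0.11 (adjusted p = 0.0433) and Csf2rb2 by 0.89 ± 0.10 (adjusted p = 0.0304), with no overlap for either. The Csf2rb call was lost without any 1 of the 6 libraries, at adjusted p values of 0.0671 to 0.217. That of Csf2rb2 was lost without d+32 replicate 1 (0.217) or 2 (0.118) and without d+32het replicate 2 (0.12) or 3 (0.0842), and in 1 fit of all libraries (0.201). Neither held with only the groups compared (0.151 for both) or with the scaling by genes near the count limit (0.0935 and 0.0813). Both were also higher in d+32 than in d+56het, where 3 of 9 receptors and 1.61% of genes passed: d+56het differed by -0.79 ± 0.11 for Csf2rb (adjusted p = 0.0104) and by -0.65 ± 0.10 for Csf2rb2 (adjusted p = 0.018). Without d+32 replicate 1 these had adjusted p values of 0.0534 and 0.0773, and Csf2rb2 also missed without d+32 replicate 2 (0.063) or d+56het replicate 1 (0.0505), and in 1 fit of all libraries (0.193). Neither held with only the groups compared (0.0722 and 0.0836). Between d+56het and d+32het Kit was the 1 receptor of 9 that passed, where 0.526% of genes did. Mast cell and basophil markers, whose cells carry the beta chains too, were highest in d+32 as given above, and their part in the beta chain levels was not tested.

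Csf3r, with 0 counts in WT, had 202 counts over the d+32 libraries, 335 over d+32het and 105 over d+56het. It was at least 67.5-fold, 112-fold and 35.7-fold higher, but 1 d+32het and 2 d+56het libraries also had 0 counts, and edgeR passed none of these comparisons, whereas DESeq2 passed all 3 (adjusted p = 5.23e-12, 1.51e-12 and 1.61e-11). Its levels were 1.47, 0.287 and 6.14 CPM in d+32, 6.13, 5.72 and 0 in d+32het, and 0, 4.52 and 0 in d+56het. Flt3, at 74.3 to 87.2 CPM in d+32 and 92.3 to 109 in WT, and Il3ra, at 4 to 6.06 and 3.74 to 4.59 CPM, did not pass between any pair of genotypes.

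**Figure D3:**
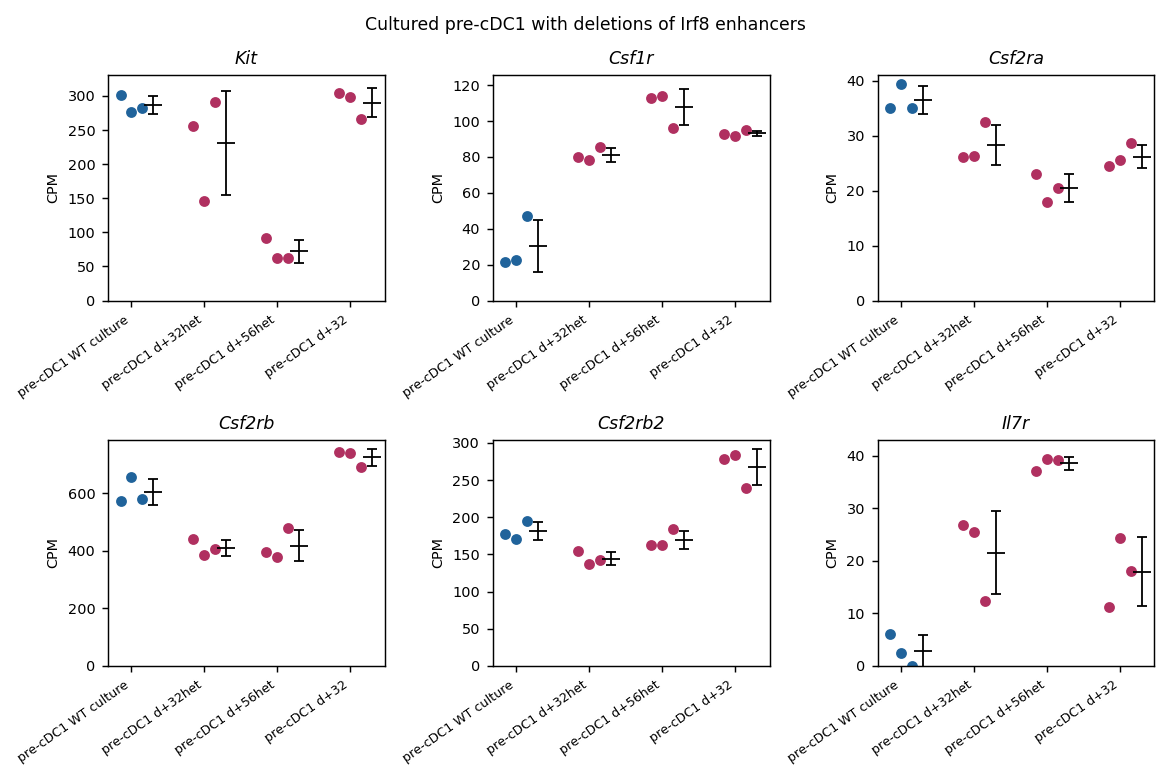
Level in CPM of 6 receptors in cultured pre-cDC1 of WT (blue) and of the d+32het, d+56het and d+32 genotypes (red); points are libraries, bars the mean and standard deviation of 3 libraries. Csf1r lies at 78 CPM or above in every deletion library, and Kit at 91.6 CPM or below in d+56het alone.

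Among cDC1 that had been transduced, the beta chains differed between the d+56 IRF8 and the WT MSCV group. These groups differ both in genotype and in the label IRF8 or MSCV, and the 2 cannot be told apart. Irf8 stood at 3642 ± 213 CPM in d+56 IRF8, 3594 ± 216 in WT MSCV and 1348 ± 185 in d+32 IRF8 (SD, n = 3). The 2 IRF8 groups thus differed in Irf8 level as well as genotype, and whether these counts include the added IRF8 was not tested. Csf2rb stood at 590, 666 and 701 CPM in d+56 IRF8 and 313, 280 and 272 in WT MSCV (log2 fold change 1.17 ± 0.16, adjusted p = 0.0149). Csf2rb2 stood at 225, 262 and 278 against 83.2, 87.7 and 100 CPM (1.49 ± 0.18, adjusted p = 0.00561). All d+56 IRF8 libraries lay above all WT MSCV libraries for both, 2 of 9 receptors where 1.65% of genes passed. The Csf2rb call was lost without WT MSCV replicate 2 (1.16, adjusted p = 0.0537) or 3 (1.13, 0.0534) and without d+56 IRF8 replicate 2 (1.16, 0.0603) or 3 (1.12, 0.0677), and narrowly with the scaling by genes near the count limit (0.0501), while that of Csf2rb2 held in every alternative run.

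The d+32 IRF8 libraries lay between, at 422, 282 and 443 CPM of Csf2rb and 140, 91.8 and 143 of Csf2rb2, with replicate 2 near the WT MSCV values. Against WT MSCV no receptor passed in edgeR, where 2.07% of genes did, 4 had an unadjusted p under 0.05, and DESeq2 called 0. Between the 2 rescued genotypes Csf2rb2 was higher in d+56 IRF8 (1.03 ± 0.17, adjusted p = 0.0357), 1 of 9 receptors where 1.05% of genes passed. That call was lost without d+56 IRF8 replicate 1 (1.12, adjusted p = 0.0822), 2 (1.02, 0.109) or 3 (0.96, 0.107), without d+32 IRF8 replicate 1 (1.13, 0.0739), with only the groups compared (0.0768), and with both genes as 1 (0.84, 0.0515). Csf1r stood at 23, 22.3 and 30.9 CPM in d+56 IRF8, 29.9, 11.2 and 21.1 in d+32 IRF8 and 6.25, 7.83 and 13.4 in WT MSCV, and passed in DESeq2 for d+56 IRF8 (1.48, adjusted p = 0.00859) and in 1 fit of all libraries for both (0.00627 and 0.0402). Kit, at 196 to 330 CPM across these 9 libraries, passed in none. Mast cell and basophil markers summed to 23.1 to 38.5 CPM in d+56 IRF8, 44.3 to 84.5 in d+32 IRF8 and 29.7 to 106 in WT MSCV. The cDC2 markers were higher in both rescued groups, at 423 to 519 CPM in d+56 IRF8 and 582 to 999 in d+32 IRF8 against 157 to 240 in WT MSCV, and monocyte markers summed to 258 to 350, 313 to 402 and 238 to 301 CPM. Cultured cDC2 held more Csf2rb, Csf2rb2 and Csf1r than WT MSCV cDC1, as given above, and the part of these markers in the differences was not tested.

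**Figure D4:**
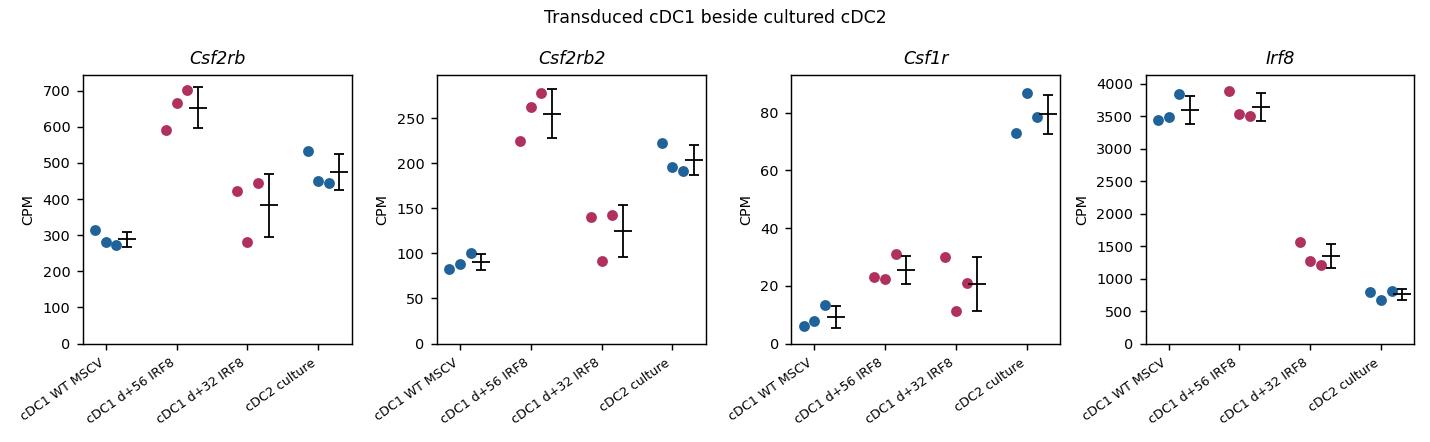
Level in CPM of Csf2rb, Csf2rb2, Csf1r and Irf8 in WT MSCV cDC1, in the d+56 IRF8 and d+32 IRF8 groups (red) and in cultured cDC2; points are libraries, bars the mean and standard deviation of 3 libraries. The beta chains are highest in d+56 IRF8, at 590 to 701 and 225 to 278 CPM, and Csf1r is highest in cDC2.

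**Figure D5:**
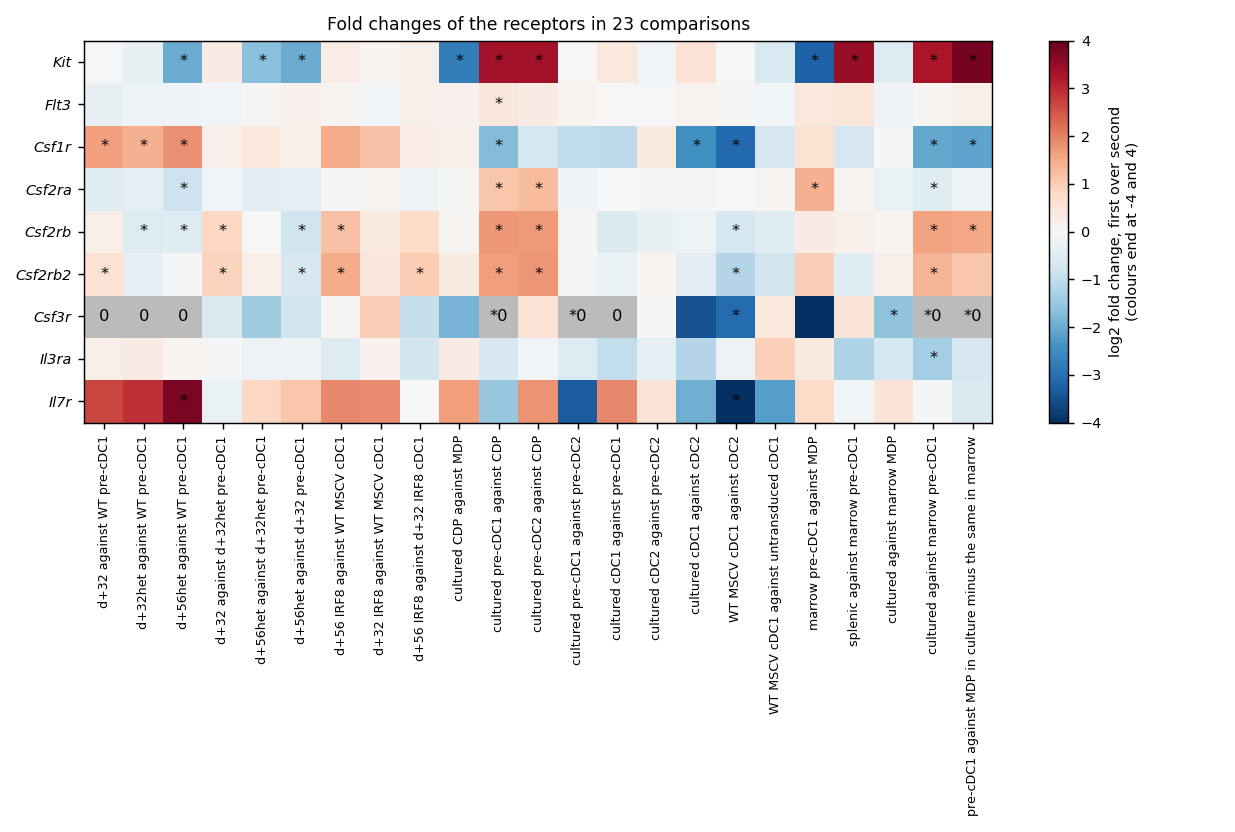
Log2 fold change of the 9 receptors in the 23 comparisons, first group over second, with colours ending at -4 and 4; an asterisk marks an edgeR adjusted p under 0.05, and grey cells with a 0 mark comparisons in which one group had 0 counts and no fold can be drawn. Kit, Csf1r and the beta chains hold most of the calls, and Flt3 holds 1.

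Partners and signalling genes of these receptors, 54 genes in 6 lists, were followed in the same fits. From CDP to cultured pre-cDC1, 6 of 17 kinases and adaptors rose and 0 fell, where 12.1% of all genes rose and 11.2% fell, among them Tyk2 (log2 fold change 1.44, adjusted p = 9.34e-06) and Jak2 (0.74, adjusted p = 0.00074), the kinase that the beta chains bind; the list's median was 0.20 and that of all genes -0.02. Of 11 negative regulators 2 rose and 4 fell, with Dusp6, a phosphatase of ERK kinases, at -2.37 (adjusted p = 1.11e-05). The TSLP receptor chain Crlf2 rose by 0.98 (adjusted p = 4.43e-05), and Bcl2, a survival gene, fell by 1.73 (adjusted p = 1.21e-05). In marrow, from MDP to pre-cDC1, 7 of 17 kinases and adaptors rose and 0 fell, where 8.24% of all genes passed in either direction. The list median was 0.65 and that of all genes 0.00, with Jak2 at 2.44 (edgeR adjusted p = 0.00055). Scaling by genes near the count limit moved the receptors in this comparison by a median of -0.33, and its effect on this list was not tested. Myc fell by 1.92 there (adjusted p = 0.0216) and by 1.36 from MDP to CDP in culture (adjusted p = 0.00276).

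Across genotypes the partner chain Il2rg, the common gamma chain that IL7R needs for IL-7, rose with each deletion: by 2.01 in d+32 (adjusted p = 0.000288), 1.62 in d+32het (adjusted p = 0.00094) and 1.78 in d+56het (adjusted p = 0.000174), from 84.8 CPM in WT. Of the other partner chains tested, none passed. Stat5a rose in all 3 as well, by 0.79, 0.71 and 1.06 in the same order (edgeR adjusted p = 0.0274, 0.0499 and 0.00305). It was the 1 of 4 STAT genes called in each, where 4.52%, 3.71% and 12.4% of all genes passed. The 3 comparisons share their WT libraries. Ptpn6, the phosphatase that damps KIT and cytokine receptor signals, rose by 0.53, 0.54 and 0.91 (adjusted p = 0.0231, 0.0261 and 0.000644). In d+56het cells Cbl, a ubiquitin ligase that removes active tyrosine kinase receptors, fell by 1.38 (adjusted p = 0.000868), while Dusp6 rose by 2.36 (adjusted p = 0.00223). Of 11 negative regulators 2 rose and 2 fell in these cells, and 2 of 17 kinases and adaptors rose (Pik3cd and Syk, both 0.63) and 1 fell (Tyk2, -0.85), where 12.4% of all genes passed. Dusp6 also rose in d+32, by 1.59 (adjusted p = 0.031). Il2rg was lower in WT MSCV cDC1 than in cDC2, at 38.7 and 480 CPM (-3.62, adjusted p = 8.85e-07). Of the 10 ligand genes, 2 to 5 passed the filter on low counts and edgeR called none in any comparison, while DESeq2 called at most 1 in any of them.

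The genes whose pattern over the 17 group means was most like each receptor's were named by rule, among 9583 genes, as a description without a test. Csf2rb and Csf2rb2 resembled each other (Pearson r = 0.97), as reads shared between them would also give, and both were closest to Exoc3 otherwise (0.90 and 0.92). Csf1r was closest to Cx3cr1 (0.96), the fractalkine receptor, itself 1 of the cDC2 markers, followed by Gria3 (0.96). By Pearson's r, Kit was closest to Guk1 (0.86), Flt3 to Nsmaf (0.90), Csf2ra to Ndst2 (0.94), Csf3r to Abcd2 (0.92), Il3ra to Atp10a (0.88) and Il7r to Pltp (0.92). Between receptors apart from the beta chains, Flt3 and Csf2ra, both near the count limit, had the highest value (0.80), followed by Csf1r and Il3ra (0.73), and Kit and Il3ra had the lowest (-0.70). By Spearman's rho the order was another for several: Guk1 ranked 128 for Kit, Nsmaf 57 for Flt3 and Cx3cr1 40 for Csf1r. The 17 means share library preparation and differ in cell type and genotype at once.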

How the data were processed

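The authors deposited expected counts for each gene of 47 libraries. Per the submitters' processing notes, STAR 2.7.7a, Picard 2.25.0 and RSEM 1.3.3 were used with mm10 (GRCm38). Per the labels' protocols, libraries came from 1500 to 10000 cells with a SMART-Seq kit and Nextera XT, which mark neither strand nor molecules, so reads from overlapping genes cannot be told apart. The authors' expected counts were rounded to whole numbers, of which 22 to 66 per library were not whole before. Library totals ran from 14660655 to 43084069 (median 28884353). Differences were tested with the quasi-likelihood F test of edgeR 4.0.16 (R 4.3.3; TMM scaling, genes filtered by filterByExpr, Benjamini-Hochberg adjusted p under 0.05 over all genes tested) in 5 fits of related groups. All 9 receptors passed the filter in every fit. Standard errors were the log2 fold change over the square root of F. Alternatives were DESeq2 1.42.0, other scalings and filters, other sets of libraries, a replicate block, and each library left out in turn. The scripts were tested on simulated data. Exon lengths came from GENCODE M21, and gene coordinates and promoters from RefSeq (GRCm38.p6). Other genes were named by rule, as those called in the pathway lists and those most like a receptor in pattern. The receptors, gene lists and tests were chosen with earlier results of these data known. Intervals and limits at 0 counts, taken as 3 counts over a group, cover counting error only.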

Additional observations from a re-analysis of the deposited data

Results flagged for a closer look

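For 4 receptors the step from MDP to pre-cDC1 differed between culture and marrow by the interaction test of edgeR. The difference of the log2 fold changes, culture minus marrow, was 3.84 for Kit, -2.11 for Csf1r, 1.55 for Csf2rb and -9.33 for Csf3r, with adjusted p values of 9.88e-05, 0.00629, 0.000645 and 0.00258. Kit was higher in pre-cDC1 than in MDP in all 3 cultured libraries and lower in all 3 marrow libraries, whereas Csf1r was lower in the former and higher in the latter. The value for Csf3r rests on a group with 0 counts and depends on the prior count. That for Csf1r is subject to the count limit given above, whose part was not tested. Monocyte markers summed to 2727 to 3297 CPM in marrow pre-cDC1 and 248 to 294 CPM in cultured pre-cDC1, and their part was not tested.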

How the results depend on the processing

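Of 52 receptor differences that passed, 29 did so under all alternatives; of 772 alternative values 662 kept the call, 110 lost it and 0 changed direction. The other 155 differences gave 2177 alternative values, of which 45 passed and 116 changed sign. Same-numbered replicates did not deviate together (correlations of -0.083 to 0.111), so the numbers were not taken as pairs; a replicate block ended 9 calls, among them those of Il7r for d+56het against WT (adjusted p = 0.0545) and for WT MSCV cDC1 against cDC2 (0.0597) and of Kit for splenic against marrow pre-cDC1 (0.0731), and added 0. Apart from leaving out single libraries, the following counts of receptors passing, of 9, moved by over 1.5 times from those in the text, and the cause was not tested. DESeq2 passed 4 for d+32 and 5 for d+32het against WT, 2 for d+56het against d+32het, 3 between the rescued genotypes, 2 for cultured cDC1 against pre-cDC1 and against cDC2, 4 for marrow pre-cDC1 against MDP and 3 for splenic against marrow pre-cDC1. Scaling by genes near the count limit, chosen after seeing the data, passed 1 for d+32het and for d+56 IRF8 against their WT, and 0 for d+32 against d+32het, between the rescued genotypes, for splenic against marrow pre-cDC1 and for cultured against marrow MDP. It moved log2 fold changes by a median of -0.33 for marrow pre-cDC1 against MDP, 0.21 for cDC2 against pre-cDC2, 0.19 for cDC1 against pre-cDC1, -0.14 for WT MSCV cDC1 against cDC2 and -0.13 for cultured pre-cDC1 against CDP. The replicate block passed 1 for d+32het against WT and 0 for d+32 against d+32het, between the rescued genotypes, for pre-cDC1 against pre-cDC2, splenic against marrow pre-cDC1 and cultured against marrow MDP. With Csf2rb and Csf2rb2 as 1 gene, 1 passed for d+32 against WT and 0 between the rescued genotypes. With only the groups compared, 0 passed for d+32het against WT, d+32 and d+56het against d+32het, between the rescued genotypes, for pre-cDC1 against pre-cDC2 and for splenic against marrow pre-cDC1, 1 for d+56het against d+32, 2 for cDC1 against cDC2, 3 for d+56het against WT and 5 for marrow pre-cDC1 against MDP. In 1 fit of all libraries, 1 passed for d+32 against WT and against d+32het and for d+32 IRF8 against WT MSCV, 2 between the rescued genotypes and for splenic against marrow pre-cDC1, 3 for WT MSCV cDC1 against cDC2, 4 for marrow pre-cDC1 against MDP, and 0 for pre-cDC1 against pre-cDC2 and for cultured against marrow MDP. Grouping the conflicting libraries by title passed 0 for pre-cDC1 against pre-cDC2 and cDC1 against cDC2, and 2 for WT MSCV cDC1 against cDC2 and against untransduced cDC1; by file name, 2, 4 and, for cDC1 against pre-cDC1, 3. With 1 library left out, all ranges that moved at all, by 1.5 times or less included, were 3 to 4 for WT MSCV cDC1 against cDC2, 0 to 2 for cultured against marrow MDP, 6 to 7 for cultured against marrow pre-cDC1, 0 to 1 for pre-cDC1 against pre-cDC2, 1 to 2 for d+32 against WT, 0 to 1 for d+32 against d+32het, 0 to 3 for d+32het and 3 to 5 for d+56het against WT, 1 to 3 for d+56het against d+32, 0 to 1 for d+56het against d+32het, 1 to 2 for d+56 IRF8 against WT MSCV, 0 to 1 between the rescued genotypes, 0 to 1 for splenic against marrow pre-cDC1 and 4 to 5 for the interaction. Depth limits Il3ra, with 41 to 409 counts per library, and Csf3r and Il7r, which had 0 counts in some.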
